A study of Mus musculus with 4 samples.

Results

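Cultures were prepared from mouse precursors of oligodendrocytes, the cells that make myelin in the central nervous system. The genes described here encode protein phosphatases and their regulatory subunits. They were chosen by a rule on symbols, set with earlier results of these data known (Ptpn, Ptpr, Dusp, Ppp1 to Ppp6, Ppm1, Phlpp, Ssh, Mtm and Mtmr, without Ptprz1, Ptprb and Dusp1), and 81 of the 6940 genes in the deposited table matched. RNA was sequenced from 2 libraries of conditional knockout cells (cKO, Olig1cre/+;Zdhhc5fl/fl) and 2 of control cells (Ctrl, Zdhhc5fl/fl), both on the C57BL/6 strain. Zdhhc5 encodes a palmitoyltransferase, and both genotypes carry its floxed alleles. Precursor cells were taken from the cortex of pups at postnatal day 5 by immunopanning on antibodies to GalC and then to O4, grown for 6 days, then given T3, a thyroid hormone, at 40 ng/mL to start differentiation, and harvested 24 h later. Cre sits in the Olig1 locus and is carried by the cKO cells only, so an effect of Cre or of the altered Olig1 allele cannot be told apart from loss of Zdhhc5. Nothing in the labels says that the libraries of a genotype are from different cultures or animals, so the p-values measure the spread between these libraries, which may be technical. Zdhhc5 itself was not analysed here.

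Protein phosphatases remove the phosphate groups that kinases add. Tyrosine phosphatases are single proteins with their own targets, either spanning the membrane with an ectodomain that binds matrix or neighbouring cells or lying inside the cell, and dual-specificity phosphatases act on serine, threonine and tyrosine, the MAP kinases being the best known substrates. Serine-threonine phosphatases such as PP1 and PP2A instead combine a few catalytic subunits with many regulatory subunits that choose the substrate and the place. In the oligodendrocyte lineage, phosphatases set the strength of growth factor, ERK and Akt signals that control precursor division, differentiation and myelin growth.

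The table lists genes that the authors had called, so every adjusted p-value there is under 0.05 (authors' deposited table). Of 163 protein-coding genes with matching symbols in the GENCODE annotation, 80 were listed and 83 were not analysed here, and the remaining member, Ppp4r1l-ps, is annotated as a pseudogene. All 81 members passed the filter on low values and all were called again by limma, as were 100% of the listed genes, so that these calls are a description and not further evidence of a difference. Values are the authors' normalised reads, that is reads divided by 1 size factor per library. The listed genes held between 13672254 and 20068016 reads per library, and the lowest value of any member in any library was 73.0 normalised reads.

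More phosphatase genes were lower than higher in cKO cells. By limma on log2(value + 1) with an adjusted p under 0.05, 28 members were higher, beside 46.7% of all listed genes, and 53 were lower, beside 53.3%. The median log2 fold change, cKO over Ctrl, was -0.31 over the members and -0.22 over all listed genes. In every member the libraries separated by genotype, both cKO libraries lying above both Ctrl libraries in 28 and below them in 53, against 46.7% and 53.3% of all listed genes. Changes of at least 1.5-fold were mostly downward: 5 members were higher by that much, beside 17.4% of listed genes, and 26 were lower, beside 27.6%. With the GC trend removed the counts at that size were 3 and 17, beside 11.5% and 18.8%.

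Direction went with base composition across the whole table, and many of the calls below depend on how that is treated. Over all listed genes the fold change rose with GC content of the transcript (Spearman's rho 0.51, 6934 genes of the same 4 libraries) and fell with length (rho -0.34). Among the 81 members the same values were 0.45 and -0.43, and median GC content was 55.3% in the members that rose and 45.7% in those that fell. With the trend in GC content removed over the whole table, 14 members were called higher, beside 27.5% of all listed genes, and 44 lower, beside 40.1%, at a median of -0.15. That trend was fitted on the listed genes only, all of them already called, and not on the estimated 17347 genes behind the authors' adjustment. The direction turned in 30 members, and each of these is named below with its value after removal. Not called after removal were Dusp19, Ptpn12, Ptprg, Ppp1r14b, Ppp1r15a, Ppp1r35, Ppp1r11 and Ppp2r5e. Nor were Ppp4r3a, Ppp6r3, Ppm1f, Ppm1k, Ppp4c, Ppp2ca and Ppp3r1, while the others that turned were called in the new direction. With relative log expression (RLE) factors computed on the table, which raised all log2 fold changes by 0.19, 28 members were called higher, beside 46.8%, and 39 lower, beside 42%. RLE factors assume that most genes do not differ, which a table of called genes cannot meet, so values under them are descriptions. Which of these scalings lies closest to the cells was not tested.

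**Figure D1:**
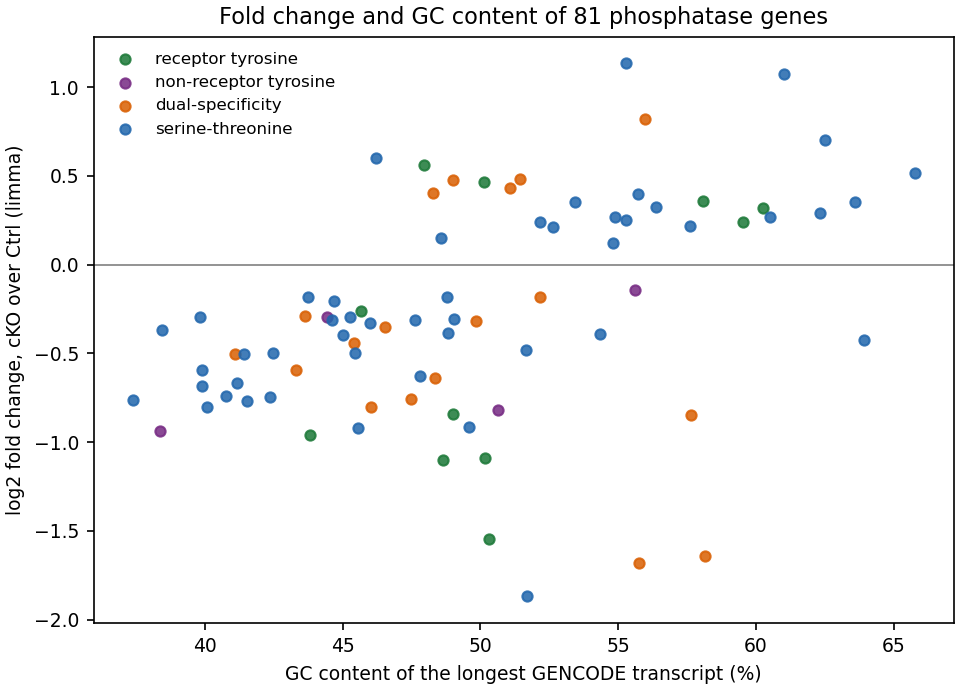
GC content of the transcript in percent (x axis) against the log2 fold change, cKO over Ctrl, by limma (y axis) for the 81 phosphatase genes, coloured by class. Points climb to the right: Spearman's rho was 0.45, and 30 of the 81 directions turn when the trend of the whole table is taken out.

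Marker genes of several cell types moved in the same libraries. All 9 oligodendrocyte markers, which include Mbp, Mag and Sox10, were detected in every library and lower in cKO cells. Their sum was 74307 and 75108 normalised reads in the cKO libraries and 291687 and 293334 in the Ctrl libraries. Olig1 is 1 of these 9, and for it an effect of the Cre allele in its own locus cannot be told apart. Of 8 astrocyte markers 7 were listed, 6 of them higher and 1 lower, with a sum of 760006 and 753169 normalised reads in the cKO libraries and 501135 and 501808 in the Ctrl libraries. Of 8 pericyte and fibroblast markers 7 were listed and all were higher, with a sum of 12120.1 and 11714 normalised reads in the cKO libraries and 3919 and 3752 in the Ctrl libraries. Of the 10 microglial markers 4 were listed, all higher, with a sum of 2376 and 2551 normalised reads in the cKO libraries and 1586 and 1547 in the Ctrl libraries. Of 10 neuronal markers 7 were higher and 2 lower, while their sum was 12484 and 12502 normalised reads in the cKO libraries and 15333 and 15944 in the Ctrl libraries. Of 6 endothelial markers 2 were higher and 1 lower, with a sum of 229 and 222 normalised reads in the cKO libraries and 223 and 187 in the Ctrl libraries. Of 5 precursor markers 1 was higher and 3 were lower, their sum being 35015 and 34403 normalised reads in the cKO libraries and 47808 and 48596 in the Ctrl libraries. No listed marker was at 0 in both libraries of a genotype. RNA of astrocyte markers was present beside that of oligodendrocyte markers, with the larger sum in every library. These sums cover different genes, are not divided by length and leave out 1 oligodendrocyte marker, so they give no cell shares. From bulk RNA the level of a phosphatase gene cannot be assigned to a cell type. The part of these shifts in the phosphatase values was not tested, and in bulk RNA fewer cells of a type and less RNA per cell cannot be told apart.

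**Figure D2:**
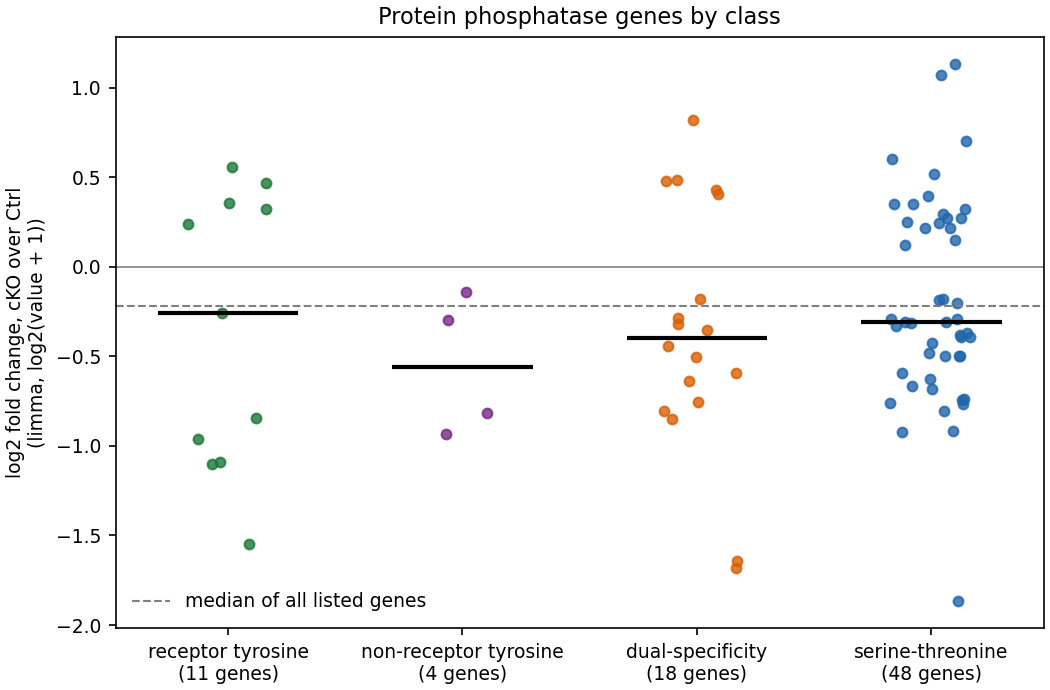
Log2 fold change, cKO over Ctrl, by limma (y axis) for each phosphatase gene in 4 classes (x axis), 1 point per gene. Black bars are class medians, -0.26, -0.56, -0.40 and -0.31 from left to right, and the dashed line is the median of all listed genes, -0.22. With the length trend removed the first of these medians is 0.10.

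Receptor tyrosine phosphatases were divided, with 5 of 11 higher and 6 lower in cKO cells, beside 46.7% and 53.3% of listed genes, a median of -0.26 and adjusted p-values by limma between 1.71e-17 and 8.33e-05. With the GC trend removed 2 were called higher and 8 lower, beside 27.5% and 40.1% of listed genes, and with the length trend removed the median was 0.10. Under the authors' scaling 5 genes were at least 1.5-fold lower and 0 at least 1.5-fold higher, beside 27.6% and 17.4% of listed genes, while with the length trend removed 3 were that much lower and 4 that much higher, beside 23% and 16.1%. Summed per kilobase of gene length, the class stood at 4052 ± 18.2 normalised reads in cKO and 3999 ± 20.9 in Ctrl cells (SD, n = 2 each).

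Ptpre, which has a very short ectodomain and is known for acting on Src kinases and potassium channels, fell most. It lies on chromosome 7, positions 135537481 to 135686293, plus strand of mm10 and had 1097 and 986 normalised reads in the cKO libraries, against 3049 and 3033 in the Ctrl libraries. The cKO libraries were 2.92-fold lower on average (-1.55 ± 0.054 on the log2 scale, SE, limma adjusted p = 1.71e-17). Ptprt, one of the MAM-domain receptors that bind their own kind on neighbouring cells, had 1428 and 1318 normalised reads in the cKO libraries, against 2915 and 2969 in the Ctrl libraries, and fell by 1.10 on the log2 scale. Its relative Ptprm went the other way, with 897 and 912 normalised reads in the cKO libraries, against 623 and 689 in the Ctrl libraries (log2 fold change 0.47 ± 0.071, SE). Both directions held with the GC trend removed, at -1.09 for Ptprt and 0.31 for Ptprm.

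Ptpro, a receptor with fibronectin repeats, had 864 and 981 normalised reads in the cKO libraries, against 1963 and 1953 in the Ctrl libraries (log2 fold change -1.09 ± 0.061, SE). Ptprj, of the same ectodomain type and known for acting on growth factor receptors, was also lower (-0.84). Both were below Ctrl in each cKO library, by more than 1.5-fold. Ptprg, whose ectodomain resembles carbonic anhydrase and binds contactins, was slightly lower at -0.26, but 0.042 without the GC trend and 0.10 without the length trend.

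The LAR family, receptors for matrix proteoglycans and synaptic partners, did not move as 1 group under the authors' scaling. With the GC trend removed all 3 listed members were lower, while with the length trend or both trends removed Ptprs and Ptprf were higher. Ptprs had 17411 and 17398 normalised reads in the cKO libraries, against 13958 and 13895 in the Ctrl libraries, and its log2 fold change was 0.32 ± 0.030 (SE), but -0.19 without the GC trend. Ptprf had 12296 and 12183 normalised reads in the cKO libraries, against 9447 and 9674 in the Ctrl libraries, and its log2 fold change was 0.36 ± 0.032 (SE), but -0.14 without the GC trend. Per kilobase these were the most abundant receptor phosphatases, Ptprf at 1338 ± 8.73 and Ptprs at 1161 ± 0.621 normalised reads in cKO cells (SD, n = 2). Ptprd was far scarcer and fell, with 189 and 191 normalised reads in the cKO libraries, against 360.0 and 383 in the Ctrl libraries (log2 fold change -0.96 ± 0.11, SE, -0.54 without the GC trend). With the length trend removed Ptprs stood at 0.82, Ptprf at 0.66 and Ptprd at -0.29. With both trends removed they stood at 0.076, 0.042 and -0.32.

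Ptprn2, a protein of secretory granules without tyrosine phosphatase activity, had the largest rise of the class. It lies on chromosome 12, positions 116485720 to 117276849, plus strand and had 898 and 975 normalised reads in the cKO libraries, against 649 and 621 in the Ctrl libraries (0.56 ± 0.071 on the log2 scale, SE, limma adjusted p = 3.1e-07), and stood at 0.64 with the GC trend removed. Its relative Ptprn was higher by 0.24, but -0.27 without the GC trend.

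To show what lies in front of genes of the class that went opposite ways, the 200 bases before the RefSeq start are given (GRCm38.p6, 5′ to 3′ on the gene's strand) for the largest fall and the largest rise among the members whose window overlaps no annotated exon. Capitals mark the GC box GGGCGG, a site type bound by Sp-family factors.
Ptpro, chr6:137252099-137252298, plus strand: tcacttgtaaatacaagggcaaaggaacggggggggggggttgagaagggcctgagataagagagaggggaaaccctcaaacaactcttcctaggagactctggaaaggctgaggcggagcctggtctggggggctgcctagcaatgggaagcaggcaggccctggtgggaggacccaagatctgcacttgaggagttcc
Ptprn2, chr12:116485520-116485719, plus strand: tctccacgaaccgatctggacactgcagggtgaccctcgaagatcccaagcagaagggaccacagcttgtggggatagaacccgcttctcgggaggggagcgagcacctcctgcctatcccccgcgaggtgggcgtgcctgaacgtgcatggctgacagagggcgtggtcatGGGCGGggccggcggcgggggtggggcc
The window of Ptpro, whose start lies 20 bases from the 5′ end of the gene as deposited, holds 2 CpG dinucleotides and no GC box, and that of Ptprn2 holds 15 CpG dinucleotides and 1 GC box.

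**Figure D3:**
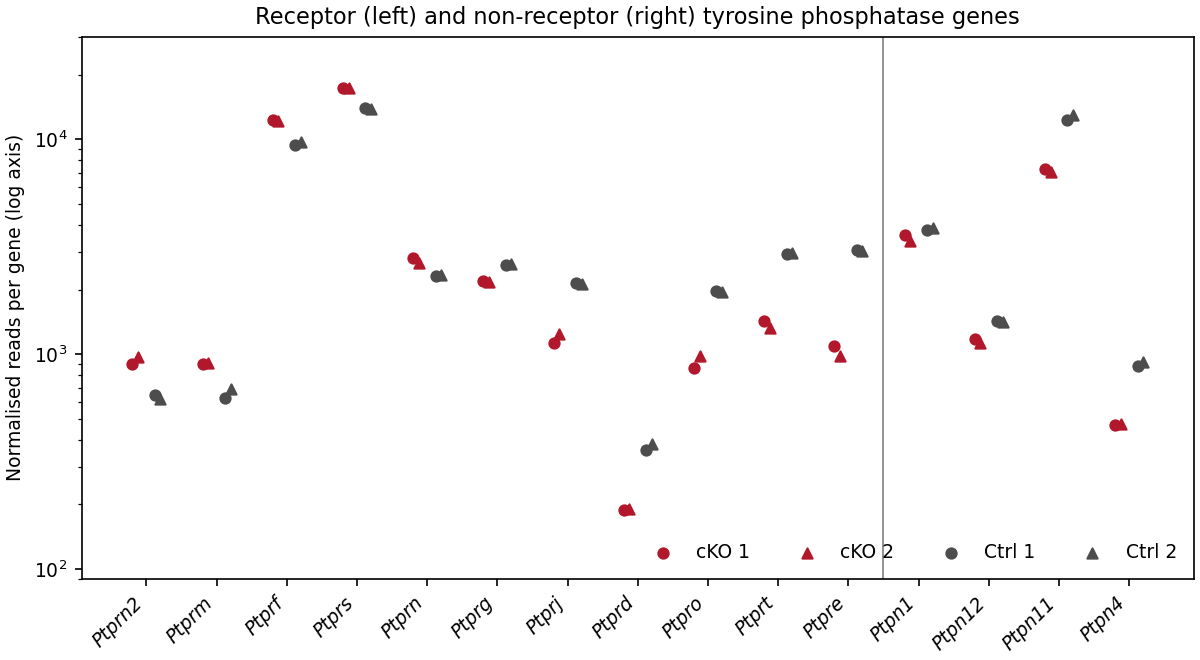
Normalised reads (y axis, log scale) of the 11 receptor and 4 non-receptor tyrosine phosphatase genes (x axis), each cKO library left of the Ctrl libraries. Levels of different genes are not divided by length. Red and grey points do not overlap in any gene, the widest gap being that of Ptpre.

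All 4 non-receptor tyrosine phosphatases were lower in cKO cells under the authors' scaling, beside 53.3% of listed genes, although Ptpn12 turned without the GC trend and Ptpn1 with RLE factors. The median log2 fold change was -0.56. Ptpn11, which encodes Shp2, the phosphatase that relays receptor tyrosine kinase signals to Ras and ERK, was the most abundant per kilobase and lies on chromosome 5, positions 121130533 to 121191397, minus strand. It had 7283 and 7044 normalised reads in the cKO libraries, against 12311 and 12954 in the Ctrl libraries, 1.76-fold lower (-0.82 ± 0.035 on the log2 scale, SE, limma adjusted p = 8.04e-16), and stood at -1.02 with the GC trend removed and at -0.55 with the length trend removed. Ptpn4, with FERM and PDZ domains, had 469 and 475 normalised reads in the cKO libraries, against 884 and 922 in the Ctrl libraries (log2 fold change -0.94 ± 0.074, SE), and fell by 0.19 with the GC trend removed.

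The 200 bases before the RefSeq start of Ptpn11, the largest fall of the class among members whose window overlaps no annotated exon, are shown. They hold 3 of the 6 motifs searched, in capitals. From 5′ to 3′ these are the ETS motif CCGGAAG, the cAMP response element TGACGTCA, a motif that CREB proteins bind, and the GC box GGGCGG, which occurs 3 times.
Ptpn11, chr5:121191398-121191597, minus strand: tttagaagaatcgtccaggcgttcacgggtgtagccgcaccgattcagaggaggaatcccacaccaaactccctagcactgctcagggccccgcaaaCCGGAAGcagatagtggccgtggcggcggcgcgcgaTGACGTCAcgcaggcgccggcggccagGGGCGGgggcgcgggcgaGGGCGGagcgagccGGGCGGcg
The cAMP response element begins 67 bases before the start, and the window holds 27 CpG dinucleotides. Windows of the serine-threonine class picked in the same way, of Ppp2r3a with 3 GC boxes and Ppm1f with no motif, are not printed.

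The other two changed less. Ptpn12, which acts on focal adhesion proteins, had 1179 and 1129.6 normalised reads in the cKO libraries, against 1427 and 1409 in the Ctrl libraries (log2 fold change -0.30 ± 0.057, SE, but 0.083 without the GC trend). Ptpn1, the phosphatase of the insulin and leptin receptors on the endoplasmic reticulum, had 3571 and 3377 normalised reads in the cKO libraries, against 3796 and 3861 in the Ctrl libraries (log2 fold change -0.14 ± 0.042, SE, -0.60 without the GC trend, but 0.051 with RLE factors). The call of Ptpn1 was lost at -0.10 without cKO 2 (limma adjusted p = 0.0768) and -0.13 without Ctrl 2 (limma adjusted p = 0.0892). Under RLE factors only Ptpn11 and Ptpn4 remained called. The summed level of the class per kilobase was 1955 ± 56.9 normalised reads in cKO and 2862 ± 67.7 in Ctrl cells (SD, n = 2 each), of which Ptpn11 made 48.9 ± 0.268% in cKO and 58.9 ± 0.726% in Ctrl cells (SD, n = 2 each).

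In the dual-specificity class 5 of 18 genes were higher and 13 lower in cKO cells, beside 46.7% and 53.3% of listed genes, with a median log2 fold change of -0.40 and adjusted p-values by limma between 3.66e-18 and 0.00186. With the GC trend removed the counts were 4 higher and 10 lower, beside 27.5% and 40.1%, at a median of -0.13. The summed level per kilobase was 4186 ± 15.9 normalised reads in cKO and 5622 ± 29.5 in Ctrl cells (SD, n = 2 each). Of the Dusp genes alone, 4 of 10 were higher and 6 lower under the authors' scaling, beside the same 46.7% and 53.3%, at a median of -0.40. With the GC trend removed 6 lay above 0 and 4 under it, beside 2984 and 3950 of 6934 listed genes, at a median of 0.11.

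The MAP kinase phosphatases went both ways. Dusp4, a nuclear phosphatase that ERK signalling induces, lies on chromosome 8, positions 34807297 to 34819894, plus strand and had 618 and 529 normalised reads in the cKO libraries, against 341 and 306 in the Ctrl libraries (0.82 ± 0.10 on the log2 scale, SE, limma adjusted p = 8.55e-08), and stood at 0.35 with the GC trend removed. Dusp6, the cytoplasmic phosphatase of ERK, had 694 and 679.9 normalised reads in the cKO libraries, against 473 and 513 in the Ctrl libraries (log2 fold change 0.48 ± 0.079, SE, 0.44 with the GC trend removed). Dusp7, also cytoplasmic and directed at ERK, lies on chromosome 9, positions 106368632 to 106375724, plus strand and fell. It had 607 and 650.3 normalised reads in the cKO libraries, against 1092 and 1173 in the Ctrl libraries, 1.80-fold lower (-0.85 ± 0.069 on the log2 scale, SE, limma adjusted p = 1.59e-10), and stood at -1.34 with the GC trend removed. Dusp10, directed at p38 and JNK, was lower as well (-0.64).

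Summed per kilobase, these 4 genes stood at 685 ± 25.1 normalised reads in cKO cells and 719.7 ± 30.5 in Ctrl cells (SD, n = 2 each), and the libraries of the genotypes overlapped in this sum. The make-up differed. Dusp7 made 27.4 ± 2.32% in cKO and 46.9 ± 0.381% in Ctrl cells (SD, n = 2 each). Dusp4 made 30.5 ± 2.23% in cKO and 16.5 ± 1.94% in Ctrl cells (SD, n = 2 each), and Dusp6 32.1 ± 0.709% in cKO and 21.9 ± 0.332% in Ctrl cells (SD, n = 2 each). Dusp7 had the largest share of the 4 in both Ctrl libraries and in neither cKO library. In cKO 1 it made 25.8% against 32.1% for Dusp4, and in cKO 2 29.1% against 29.0%, so the order of these genes in cKO cells differed between the libraries. These shares are descriptions and were not tested.

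The windows of Dusp7 and Dusp6, cytoplasmic phosphatases of the same kinase that went opposite ways, are set side by side. They are in lower case throughout because neither holds any of the 6 motifs searched.
Dusp7, chr9:106368432-106368631, plus strand: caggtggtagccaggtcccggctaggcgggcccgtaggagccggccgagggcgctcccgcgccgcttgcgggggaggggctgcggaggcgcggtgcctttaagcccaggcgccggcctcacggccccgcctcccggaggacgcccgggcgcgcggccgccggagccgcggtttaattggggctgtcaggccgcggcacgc
Dusp6, chr10:99263031-99263230, plus strand: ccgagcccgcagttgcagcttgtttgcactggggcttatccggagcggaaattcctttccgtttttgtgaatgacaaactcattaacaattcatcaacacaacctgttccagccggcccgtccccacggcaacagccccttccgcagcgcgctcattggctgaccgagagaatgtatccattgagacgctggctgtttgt
The Dusp7 window holds 30 CpG dinucleotides and the Dusp6 window 13, beside a median of 17.0 over the 62 members with a window and 5.0 over all 32851 windows of the table.

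Some atypical Dusp genes had the steepest falls of the class. Dusp15, a myristoylated phosphatase known as a Sox10 target in oligodendroglial cells, lies on chromosome 2, positions 152940997 to 152951698, minus strand and had 862 and 939.8 normalised reads in the cKO libraries, against 2913 and 2864 in the Ctrl libraries. That is 3.21-fold lower (-1.68 ± 0.054 on the log2 scale, SE, limma adjusted p = 3.66e-18). Dusp26, found largely in neural and neuroendocrine tissue, lies on chromosome 8, positions 31089471 to 31097047, plus strand and had 328 and 379.7 normalised reads in the cKO libraries, against 1096 and 1113 in the Ctrl libraries. It was 3.12-fold lower (-1.64 ± 0.081, SE, limma adjusted p = 1.17e-14). With the GC trend removed both falls grew, to -2.14 for Dusp15 and -2.14 for Dusp26.

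Dusp14, which acts on the TAK1 complex in immune cells, had 407 and 431 normalised reads in the cKO libraries, against 312 and 287 in the Ctrl libraries (log2 fold change 0.48 ± 0.10, SE, 0.21 and no longer called with the GC trend removed). Dusp18 was higher by 0.41. Lower were Dusp19 (-0.50, but 0.083 without the GC trend), a scaffold of the JNK pathway, and Dusp11 (-0.29, but 0.14 without the GC trend and 0.012 without the length trend), which acts on RNA ends. The slingshot phosphatase of cofilin, Ssh2 (-0.35, -0.12 and no longer called without the GC trend, but 0.24 without the length trend), was lower.

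The myotubularins, which share the phosphatase fold and act on phosphoinositides of endosomes, were lower in 6 of 7 genes under the authors' scaling, beside 53.3% of listed genes. Of these myotubularins Mtmr9 turned with RLE factors. Mtmr10, a member without catalytic activity, had 1799.6 and 1759 normalised reads in the cKO libraries, against 3148 and 3064 in the Ctrl libraries (log2 fold change -0.80 ± 0.046, SE, -0.53 without the GC trend). Mtmr6, an active member, had 1855 and 1983 normalised reads in the cKO libraries, against 2804 and 2978 in the Ctrl libraries (log2 fold change -0.59 ± 0.049, SE, -0.14 with the GC trend removed). Mtmr9, an inactive partner of other myotubularins and the most abundant of the class per kilobase in cKO cells, had 2599 and 2410.0 normalised reads in the cKO libraries, against 2876 and 2805 in the Ctrl libraries (log2 fold change -0.18 ± 0.047, SE, -0.51 without the GC trend, but 0.0087 with RLE factors). These falls held in direction with the GC trend removed. Mtmr11, also inactive, was the member that rose, with 462 and 513 normalised reads in the cKO libraries, against 380.0 and 343 in the Ctrl libraries (log2 fold change 0.43 ± 0.094, SE, 0.19 and no longer called with the GC trend removed). The remaining members were lower, namely Mtmr7 (-0.76), Mtmr2 (-0.44, -0.12 without the GC trend), whose human gene is mutated in a demyelinating neuropathy, and Mtmr4 (-0.32).

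**Figure D4:**
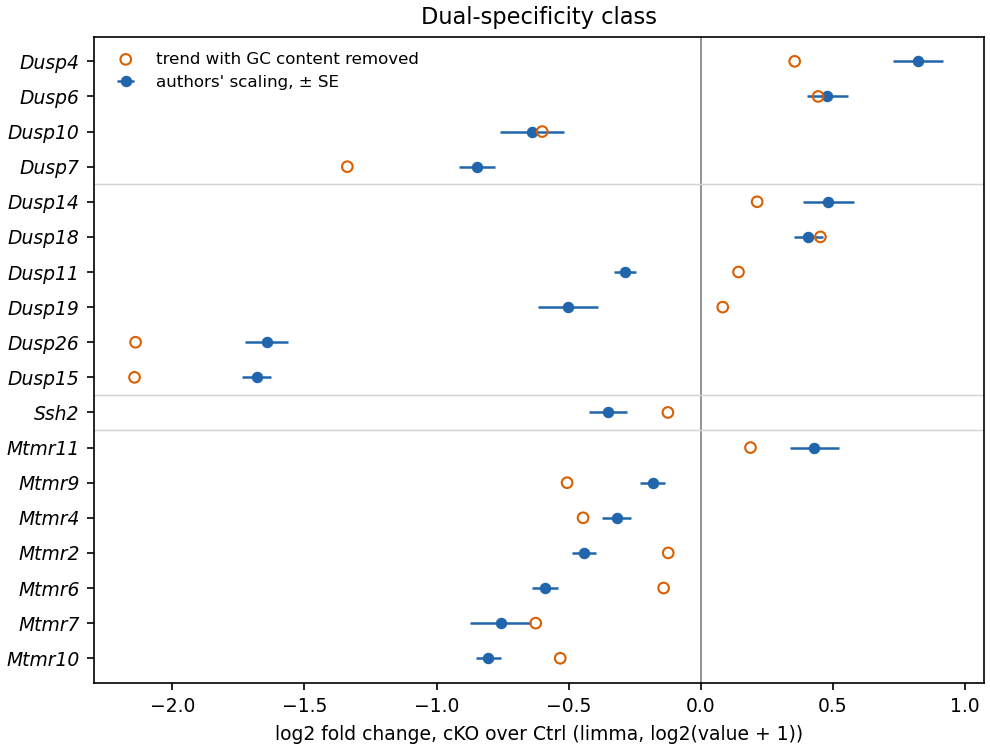
Log2 fold change, cKO over Ctrl, by limma (x axis) for the 18 genes of the dual-specificity class (y axis), grouped as MAP kinase phosphatases, atypical Dusp genes, the slingshot and the myotubularins. Filled points with bars are estimates ± SE under the authors' scaling and open points the same with the GC trend removed. Dusp15 and Dusp26 stand far to the left in both, while Dusp11 and Dusp19 cross 0.

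Serine-threonine phosphatases made up 48 of the 81 members, with 18 higher and 30 lower in cKO cells, beside 46.7% and 53.3% of listed genes, a median log2 fold change of -0.31 and adjusted p-values by limma between 1.26e-22 and 0.00588. After removal of the GC trend 8 were called higher and 23 lower, beside 27.5% and 40.1%, at a median of -0.14. The summed level per kilobase was 30632 ± 406 normalised reads in cKO and 30345 ± 139 in Ctrl cells (SD, n = 2 each). Not divided by length, the sums were 130257 in cKO and 151169 in Ctrl cells, and median length was 3406 bases in the members that rose and 7166 in those that fell.

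Of the catalytic genes 11 of 15 were lower and 4 higher, beside 53.3% and 46.7% of listed genes. After removal of the GC trend 6 lay above 0 and 9 under it, beside 2984 and 3950 of 6934 listed genes. Ppp1cb, a catalytic subunit of PP1, had 4434 and 4605 normalised reads in the cKO libraries, against 7543 and 7543 in the Ctrl libraries (log2 fold change -0.74 ± 0.037, SE, -0.13 with the GC trend removed). Its paralogue Ppp1cc had 3897 and 3765 normalised reads in the cKO libraries, against 4337 and 4369.8 in the Ctrl libraries (log2 fold change -0.18 ± 0.040, SE, but 0.0066 with RLE factors). Of the summed level of this pair per kilobase, Ppp1cc made 73.0 ± 1.01% in cKO and 64.8 ± 0.121% in Ctrl cells (SD, n = 2 each). Ppp2ca, the main catalytic subunit of PP2A, was the most abundant catalytic gene per kilobase in both genotypes. It had 8644 and 8395 normalised reads in the cKO libraries, against 10601 and 10525 in the Ctrl libraries (log2 fold change -0.31 ± 0.033, SE, but 0.058 without the GC trend).

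Calcineurin, the calcium-activated phosphatase, was lower in each subunit listed under the authors' scaling, although Ppp3cb and Ppp3r1 turned without the GC trend. Ppp3ca had 4362 and 4428 normalised reads in the cKO libraries, against 6415 and 6016 in the Ctrl libraries (log2 fold change -0.50 ± 0.039, SE, -0.18 with the GC trend removed). The second catalytic gene Ppp3cb (-0.29, but 0.37 without the GC trend and 0.0056 without the length trend) and the calcium-binding subunit Ppp3r1 (-0.50, but 0.065 without the GC trend) were lower under the authors' scaling. Ppp6c, the catalytic subunit of PP6, was also lower at -0.37, but 0.37 without the GC trend. Ppp5c, which binds the chaperone Hsp90, was higher, with 2868 and 2853 normalised reads in the cKO libraries, against 2225 and 2348 in the Ctrl libraries (log2 fold change 0.32 ± 0.046, SE, but -0.15 without the GC trend). Ppp4c, the catalytic subunit of PP4, had 1951 and 1802 normalised reads in the cKO libraries, against 1699 and 1538 in the Ctrl libraries (log2 fold change 0.21 ± 0.057, SE, but -0.14 without the GC trend). Its call was lost at 0.14 without Ctrl 2 (limma adjusted p = 0.131).

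Of the metal-dependent PPM and PHLPP phosphatases 5 were lower and 2 higher, beside 53.3% and 46.7% of listed genes. With the GC trend removed 4 lay under 0 and 3 above it, beside 3950 and 2984 of 6934 listed genes. Ppm1l, which acts on the ceramide transfer protein, had 2889 and 2949.9 normalised reads in the cKO libraries, against 4507 and 4525 in the Ctrl libraries (log2 fold change -0.63 ± 0.040, SE, -0.53 with the GC trend removed). Ppm1k, the mitochondrial phosphatase of branched-chain amino acid breakdown, had 342 and 286 normalised reads in the cKO libraries, against 504 and 443 in the Ctrl libraries (log2 fold change -0.59 ± 0.10, SE, but 0.067 without the GC trend). The fall of Ppm1l thus held with GC content accounted for and that of Ppm1k did not. Also lower were Ppm1e (-0.39, -0.049 and no longer called without the GC trend), Ppm1b (-0.20, but 0.16 without the GC trend), and Ppm1a (-0.18, but 0.24 without the GC trend, 0.24 without the length trend and 0.0090 with RLE factors), which ends SMAD and stress kinase signals.

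Ppm1f, a phosphatase of calcium/calmodulin-dependent kinase, had 3085 and 3061 normalised reads in the cKO libraries, against 2336 and 2485 in the Ctrl libraries (log2 fold change 0.35 ± 0.045, SE, but -0.048 without the GC trend). Phlpp1, which removes an activating phosphate from Akt, had 5949.8 and 6003 normalised reads in the cKO libraries, against 5098 and 4944 in the Ctrl libraries (log2 fold change 0.25 ± 0.037, SE, but -0.20 without the GC trend). Neither rise held with the GC trend removed, and so it was for Ppp5c and Ppp4c, the other catalytic genes that were higher.

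Regulatory subunits of PP1 held both ends of the range, with 10 of 17 higher and 7 lower, beside 46.7% and 53.3% of listed genes. After removal of the GC trend 4 lay above 0 and 13 under it, beside 2984 and 3950 of 6934 listed genes. Ppp1r16b, a membrane-anchored subunit known as TIMAP, had the largest change of all 81 members under the authors' scaling. It lies on chromosome 2, positions 158665398 to 158766334, plus strand and had 3597 and 3567 normalised reads in the cKO libraries, against 12814 and 13335 in the Ctrl libraries, 3.65-fold lower (-1.87 ± 0.036 on the log2 scale, SE, limma adjusted p = 1.26e-22). Its value without the GC trend was -2.16. Its paralogue Ppp1r16a (0.27, but -0.25 without the GC trend) was higher, a call lost at 0.16 without cKO 1 (limma adjusted p = 0.101). Of the level of the pair per kilobase, Ppp1r16a made 37.2 ± 2.29% in cKO and 11.9 ± 0.226% in Ctrl cells (SD, n = 2 each).

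Other regulatory subunits of PP1 went both ways. Ppp1r9a, the neuronal actin-binding neurabin, had 774 and 789 normalised reads in the cKO libraries, against 1462 and 1503 in the Ctrl libraries (log2 fold change -0.92 ± 0.060, SE). Its paralogue Ppp1r9b (0.29, but -0.24 without the GC trend), spinophilin, was higher, and made 97.2 ± 0.0776% in cKO and 93.8 ± 0.413% in Ctrl cells (SD, n = 2 each) of the level of both per kilobase. Ppp1r21, an endosomal protein, had 868 and 901 normalised reads in the cKO libraries, against 1635 and 1705 in the Ctrl libraries (log2 fold change -0.92 ± 0.058, SE). Both falls held with the GC trend removed, at -0.62 for Ppp1r9a and -1.01 for Ppp1r21. Lower too were Ppp1r12a (-0.68, -0.022 and no longer called without the GC trend), the myosin-targeting subunit, and Ppp1r7 (-0.31, -0.19 without the GC trend, but 0.031 without the length trend), a nuclear subunit.

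Inhibitors of PP1 that protein kinase A switches on had the largest rises of all members under the authors' scaling, while without the GC trend Ppp1r3c stood higher. Ppp1r1a lies on chromosome 15, positions 103530279 to 103538003, minus strand and had 937 and 886 normalised reads in the cKO libraries, against 457 and 377 in the Ctrl libraries, 2.19-fold higher (1.13 ± 0.086 on the log2 scale, SE, limma adjusted p = 4.57e-11). Ppp1r1b, which encodes DARPP-32, lies on chromosome 11, positions 98348404 to 98357796, plus strand and had 169 and 155 normalised reads in the cKO libraries, against 73.0 and 80.4 in the Ctrl libraries, 2.11-fold higher (1.07 ± 0.17 on the log2 scale, SE, limma adjusted p = 5.63e-06). With the GC trend removed they stood at 0.68 for Ppp1r1a and 0.55 for Ppp1r1b, and both were still called. The inhibitor gene Ppp1r14b, the most abundant phosphatase member per kilobase in cKO cells, had 4612 and 4329 normalised reads in the cKO libraries, against 3219 and 3023 in the Ctrl libraries (log2 fold change 0.52 ± 0.044, SE, but -0.062 without the GC trend and 0.032 without the length trend). The inhibitor Ppp1r11 (0.24, but -0.081 without the GC trend and -0.19 without the length trend) was higher, a call lost at 0.19 without Ctrl 1 (limma adjusted p = 0.0743).

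Ppp1r3c, which brings PP1 to glycogen, had 6846 and 6929 normalised reads in the cKO libraries, against 4499 and 4596 in the Ctrl libraries (log2 fold change 0.60 ± 0.036, SE, 0.86 with the GC trend removed, but 0.27 with the length trend removed and 0.55 with both removed). The related glycogen subunit Ppp1r3e (-0.42, -0.98 without the GC trend) was lower. Ppp1r13l, an inhibitor of p53 called iASPP, was scarce and its cKO libraries differed, with 182 and 125 normalised reads in the cKO libraries, against 92.0 and 92.6 in the Ctrl libraries (log2 fold change 0.70 ± 0.18, SE, 0.16 and no longer called with the GC trend removed). Its call was lost at 0.43 without cKO 1 (limma adjusted p = 0.0939). Of the subunits that direct PP1 to the translation factor eIF2α, the stress-induced Ppp1r15a (0.40, but -0.065 without the GC trend) was higher and the constitutive Ppp1r15b (-0.38) lower. Summed per kilobase the pair stood at 654 ± 22.3 in cKO and 754 ± 41.5 normalised reads in Ctrl cells (SD, n = 2 each). A centriole protein of the group, Ppp1r35 (0.35, but -0.20 without the GC trend and -0.13 without the length trend), was higher.

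Among the PP2A regulatory genes 3 were higher and 6 lower, beside 46.7% and 53.3% of listed genes. With the GC trend removed 2 lay above 0 and 7 under it, beside 2984 and 3950 of 6934 listed genes. The scaffold gene Ppp2r1a was the most abundant of these per kilobase and had 13600.4 and 13563 normalised reads in the cKO libraries, against 12462 and 12519 in the Ctrl libraries (log2 fold change 0.12 ± 0.031, SE, but -0.32 without the GC trend and -0.062 without the length trend), while the second scaffold gene was lower, Ppp2r1b (-0.31). The B subunits Ppp2r2a (-0.75, -0.24 without the GC trend) and Ppp2r2c (-0.39, -0.82 without the GC trend) and the calcium-binding Ppp2r3a (-0.77, -0.21 without the GC trend) fell. Of the B56 family, Ppp2r5c (-0.33, -0.058 and no longer called without the GC trend) and Ppp2r5e (-0.29, but 0.033 without the GC trend) were lower and Ppp2r5a (0.15) and Ppp2r5d (0.27, but -0.17 without the GC trend) higher. The call of Ppp2r5a was lost at 0.12 without Ctrl 2 (limma adjusted p = 0.142). Their sum per kilobase was 1813 ± 14.4 normalised reads in cKO and 1833 ± 8.51 in Ctrl cells (SD, n = 2 each), both cKO libraries lying below both Ctrl libraries, and Ppp2r5d made 42.6 ± 0.656% in cKO and 35.0 ± 0.000200% in Ctrl cells (SD, n = 2 each).

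Regulatory genes of PP4 were all lower under the authors' scaling, beside 53.3% of listed genes, although Ppp4r3a turned without the GC trend. Ppp4r3b, a subunit that binds substrates, had 981 and 953 normalised reads in the cKO libraries, against 1664 and 1710.4 in the Ctrl libraries (log2 fold change -0.80 ± 0.056, SE, -0.15 with the GC trend removed). Its paralogue Ppp4r3a (-0.76, but 0.038 without the GC trend) and the subunit Ppp4r2 (-0.67, -0.087 and no longer called without the GC trend) were lower under the authors' scaling, as was the pseudogene Ppp4r1l-ps (-0.48, -0.77 without the GC trend), from which reads of related genes cannot be told apart. Of the PP6 subunits Ppp6r1 (0.22, but -0.27 without the GC trend) was higher and Ppp6r3 (-0.50, but 0.0059 without the GC trend) lower, and Ppp6r1 made 83.1 ± 0.117% in cKO and 75.0 ± 0.0148% in Ctrl cells (SD, n = 2 each) of the level of both per kilobase.

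**Figure D5:**
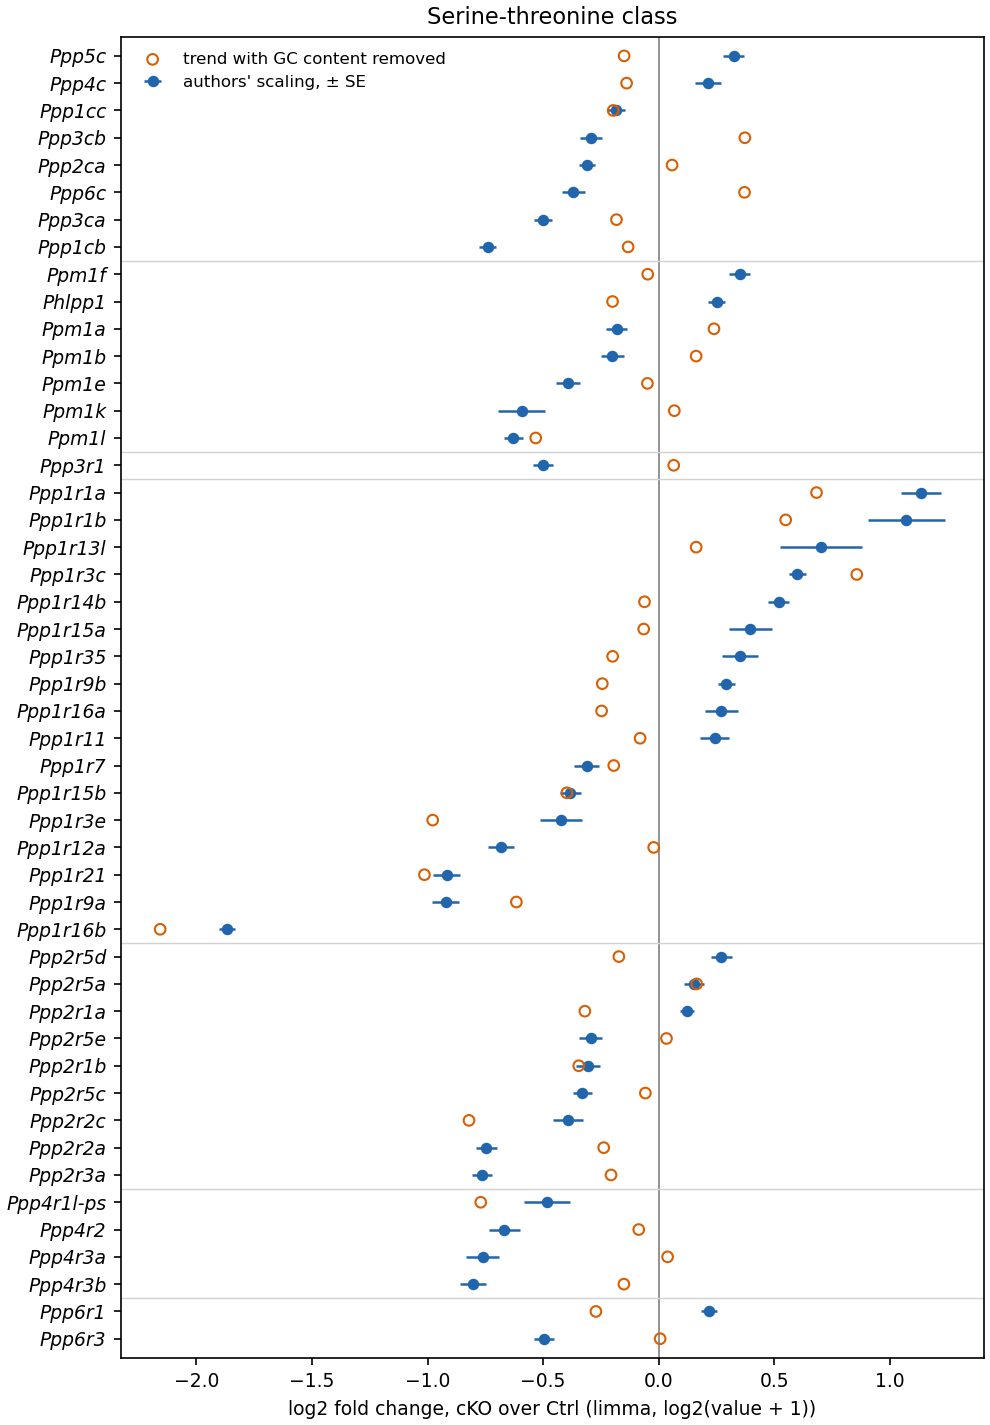
Log2 fold change, cKO over Ctrl, by limma (x axis) for the 48 genes of the serine-threonine class (y axis), in blocks from top to bottom of PPP catalytic, PPM and PHLPP, calcineurin regulatory, PP1, PP2A, PP4 and PP6 regulatory genes. Filled points with bars are estimates ± SE under the authors' scaling and open points the same with the GC trend removed. Ppp1r16b lies at -1.87 and Ppp1r1a at 1.13, and most catalytic genes move toward or across 0 in the open points.

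Promoter windows, the 200 bases before the RefSeq start in GRCm38.p6, were found for 62 of the 81 members, overlapped no annotated exon in 22 of these, and were searched on both strands for 6 motifs. The GC box GGGCGG stood in 40 of 62 member windows and in 31.05% of all windows, in 14 of 24 members that rose and 26 of 38 that fell. Member windows, 1 per gene, held a median of 17.0 CpG dinucleotides, against 5.0 over all 32851 windows, so these shares compare unlike sets of windows. The ETS motif CCGGAAG stood in 8 member windows and 6.29% of all, the SOX motif ACAAAG in 5 and 13.33%, the E-box CACGTG in 2 and 5.26%, and the AP-1 motif TGACTCA in 0 and 3.66%. The cAMP response element TGACGTCA stood in 4 member windows, those of Ptpn11, Ppp2ca, Ppm1a and Ppp1r15a, and in 1.47% of all. Ptpn11, Ppp2ca and Ppm1a were lower and Ppp1r15a was higher under the authors' scaling, and without the GC trend the direction turned for all of these but Ptpn11.

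Windows that overlap an annotated exon, as those of Ppp2ca and Ppp1r15a, were counted and are not printed. The element of Ppm1a is shown here with up to 40 bases on each side, and that of Ptpn11 stands in its window above. Only the element is in capitals here, and the GC boxes of the Ppm1a window, 4 in all, are not marked.
Ppm1a, chr12:72761035-72761122, plus strand: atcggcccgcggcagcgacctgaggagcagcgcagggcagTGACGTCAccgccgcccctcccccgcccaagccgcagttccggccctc
The element begins 136 bases before the start, which lies 3756 bases from the 5′ end of the gene as deposited. A match of letters is a description and not a measured binding site.

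Genes around the members were read from lists of other phosphatases, of phosphatase regulators and of ERK feedback genes. Of 40 other phosphatases 17 were listed, 6 higher and 11 lower in cKO cells, beside 46.7% and 53.3% of listed genes. Their median was -0.27, beside -0.22 over all listed genes, and -0.020 with the GC trend removed, beside -0.070. The lowest were Inpp4a (-1.07), a lipid phosphatase, Styx (-0.93, -0.14 without the GC trend), a pseudophosphatase, and Cdc14a (-0.67, -0.020 without the GC trend). The highest were Pdp1 (0.71, 1.41 without the GC trend), the phosphatase of pyruvate dehydrogenase, Cdc25b (0.54, 0.11 without the GC trend), which activates cyclin-dependent kinases, and Ptp4a3 (0.53, 0.026 without the GC trend).

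Of 34 regulators 18 were listed, 5 higher and 13 lower (median -0.36, and -0.066 with the GC trend removed), beside the same 46.7% and 53.3%. Strn, or striatin, a scaffold that binds PP2A, had 1323 and 1468 normalised reads in the cKO libraries, against 5544 and 5624 in the Ctrl libraries, and its log2 fold change of -2.00 ± 0.048 (SE) was lower than that of any member under the authors' scaling, whereas with the GC trend removed it stood at -1.64 and Ppp1r16b at -2.16. Cip2a (-0.90, -0.13 without the GC trend), an inhibitor of PP2A, and Phactr3 (-0.89), which binds PP1 and actin, followed. The highest were Nfatc4 (1.23, 0.73 without the GC trend), a calcineurin target, Rcan1 (0.63, 0.20 without the GC trend), an inhibitor of calcineurin, and Ptpa (0.25, but -0.19 without the GC trend), an activator of PP2A.

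Of 22 ERK feedback genes 9 were listed, 7 higher and 2 lower (median 0.37, and 0.15 with the GC trend removed), again beside 46.7% and 53.3%. The highest were Ier3 (0.58, 0.15 without the GC trend), Spry4 (0.43, 0.17 without the GC trend) and Spry2 (0.42, 0.68 without the GC trend), the Sprouty proteins being inhibitors of receptor signals to ERK. The 2 that were lower were Spry3 (-1.31), for which no GC content was matched, and Spred1 (-0.43, but 0.14 without the GC trend). These counts describe lists among genes already called, and nothing particular to a list was tested.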

How the data were processed

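Per the file headers, the deposited table holds for each gene and library the authors' normalised signal (reads over a size factor), genotype means, their log2 fold change with p-value and adjusted p-value, and a gene length whose meaning is not stated. Per the submitters' processing notes DESeq2 and the build mm10, also named GRCm38, were used. Aligner, counting tool, strand setting and total depth are not given in the sources used here, so reads of overlapping, antisense or near-identical genes cannot be told apart.

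Whole reads could be recovered from the deposited signal: within 0.01 read, 100% of values were whole, a read being worth 0.8165 in cKO 1, 1.1866 in cKO 2, 1.0 in Ctrl 1 and 1.0181 in Ctrl 2. All 6940 listed genes have an adjusted p-value of at most 0.0499 in the authors' deposited table. The number of genes behind that adjustment is not given and was estimated from the listed p-values as 17347. Genotypes were compared with limma 3.58.1 (R 4.3.3) on log2(value + 1) with a variance trend and 2 residual degrees of freedom, for genes with a value of at least 1 in 2 libraries, with Benjamini-Hochberg adjustment over 17347 genes and a two-sided call at 0.05. The variance was pooled over genes selected for their difference, so p-values may be too low. Fold changes are on the log2(value + 1) scale, and folds in words are ratios of mean normalised reads. On the recovered reads edgeR 4.0.16 called 3244 listed genes higher and 3696 lower in cKO cells, and DESeq2 1.42.0 called 3236 higher and 3690 lower. Alternatives were other scalings, pseudocounts, filters, left-out libraries, a replicate block, and lowess removal over all listed genes of the trend with GC content (longest GENCODE release M21 transcript, 99.9% of listed genes matched) or length. The limma fit was tried on simulated data in which most genes did not differ, unlike the genes listed here.

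The members and gene lists were chosen with earlier results of these data known. Named in full are, in each class, the 4 largest rises and falls and the 2 highest levels per kilobase, with the serine-threonine class divided into catalytic and regulatory genes, and of the other lists the 3 largest changes each way. Every other member is named with its log2 fold change. Of the oligodendrocyte markers 1 is not reported here and was left out of their count and sum. Promoter windows are from RefSeq (GRCm38.p6), matched by symbol.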

Additional observations from a re-analysis of the deposited data

How the results depend on the processing

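The counts of calls and directions above were recomputed under each alternative. All 81 members kept their direction and their call with edgeR's quasi-likelihood test and with DESeq2 on the recovered reads, with other pseudocounts and filters, and with adjustment over the listed genes only. Without the variance trend 8 lost the call and with TMM factors 2. With RLE factors 10 that kept their direction lost it and 4 turned, which left 28 called higher and 39 lower. TMM and RLE factors were computed on called genes only, where their assumption that most genes do not differ is not met. Leaving out 1 library ended between 1 and 3 calls and turned 0. The labels do not say whether libraries of the same replicate number belong together. The correlation of deviations by replicate number, 0.013 over 6940 genes, cannot settle this, and the replicate block changed no call. With it, 28 members were called higher and 53 lower. In the counts that follow, ended calls are those of members that kept their direction. Removing the GC trend ended 8 calls and turned 30 members, leaving 14 called higher and 44 lower. Removing the length trend ended 12 and turned 9, leaving 20 and 43. Removing both ended 16 and turned 22, leaving 13 and 40. The replicate block with the GC trend removed ended 9 and turned 30, leaving 14 and 43. The cause of these changes was not tested. Depth limits the scarcest members most, and the SE reached 0.18 for Ppp1r13l and 0.17 for Ppp1r1b. Log2(value + 1) understates changes of low genes.

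With TMM factors, the median log2 fold change was -0.24 for all members, -0.19 for the receptor tyrosine class, -0.49 for the non-receptor tyrosine class, -0.33 for the dual-specificity class and -0.24 for the serine-threonine class. With RLE factors, the calls in cKO cells were 2 lower for the non-receptor tyrosine class, and the median log2 fold change was -0.12 for all members, -0.068 for the receptor tyrosine class, -0.37 for the non-receptor tyrosine class, -0.21 for the dual-specificity class and -0.12 for the serine-threonine class. With the length trend removed, the calls in cKO cells were 10 higher for the serine-threonine class, and the median log2 fold change was -0.17 for all members, 0.10 for the receptor tyrosine class, -0.51 for the non-receptor tyrosine class, -0.38 for the dual-specificity class and -0.15 for the serine-threonine class. With the GC trend removed, the calls in cKO cells were 1904 higher for all listed genes, 14 higher for all members, 2 higher for the receptor tyrosine class and 8 higher for the serine-threonine class, and the median log2 fold change was -0.15 for all members, -0.40 for the non-receptor tyrosine class, -0.13 for the dual-specificity class and -0.14 for the serine-threonine class. With both trends removed, the calls in cKO cells were 1950 higher for all listed genes, 13 higher for all members, 2 higher for the receptor tyrosine class and 7 higher for the serine-threonine class, and the median log2 fold change was -0.15 for all members, -0.20 for the receptor tyrosine class, -0.36 for the non-receptor tyrosine class, -0.27 for the dual-specificity class and -0.11 for the serine-threonine class. With the replicate block and the GC trend removed, the calls in cKO cells were 1927 higher for all listed genes, 14 higher for all members, 2 higher for the receptor tyrosine class and 8 higher for the serine-threonine class, and the median log2 fold change was -0.15 for all members, -0.40 for the non-receptor tyrosine class, -0.13 for the dual-specificity class and -0.14 for the serine-threonine class. With Dusp genes only counted, the calls in cKO cells were 6 lower for the dual-specificity class. With catalytic members only counted, the calls in cKO cells were 4 higher for the serine-threonine class and 11 lower for the serine-threonine class. Leaving out 1 library in turn, the median log2 fold change of dual-specificity genes lay between -0.42 and -0.39.

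Log2 fold changes that turned with RLE factors were Mtmr9 0.0087, Ptpn1 0.051, Ppm1a 0.0090 and Ppp1cc 0.0066. Log2 fold changes that turned with the length trend removed were Dusp11 0.012, Ssh2 0.24, Ptprg 0.10, Ppp1r35 -0.13, Ppp1r11 -0.19, Ppp1r7 0.031, Ppp2r1a -0.062, Ppm1a 0.24 and Ppp3cb 0.0056. Log2 fold changes that turned with the GC trend removed were Dusp11 0.14, Dusp19 0.083, Ptpn12 0.083, Ptprf -0.14, Ptprs -0.19, Ptprg 0.042, Ptprn -0.27, Ppp1r14b -0.062, Ppp1r15a -0.065, Ppp1r35 -0.20, Ppp1r9b -0.24, Ppp1r16a -0.25, Ppp1r11 -0.081, Ppp2r5d -0.17, Ppp2r1a -0.32, Ppp2r5e 0.033, Ppp4r3a 0.038, Ppp6r1 -0.27, Ppp6r3 0.0059, Ppm1f -0.048, Phlpp1 -0.20, Ppm1a 0.24, Ppm1b 0.16, Ppm1k 0.067, Ppp5c -0.15, Ppp4c -0.14, Ppp3cb 0.37, Ppp2ca 0.058, Ppp6c 0.37 and Ppp3r1 0.065. Log2 fold changes that turned with both trends removed were Dusp11 0.14, Ssh2 0.090, Ptprg 0.10, Ptprn -0.20, Ppp1r14b -0.10, Ppp1r15a -0.041, Ppp1r35 -0.25, Ppp1r9b -0.15, Ppp1r16a -0.18, Ppp1r11 -0.16, Ppp2r5d -0.14, Ppp2r1a -0.29, Ppp4r3a 0.0067, Ppp6r1 -0.18, Phlpp1 -0.026, Ppm1a 0.31, Ppm1b 0.040, Ppp5c -0.11, Ppp4c -0.090, Ppp3cb 0.30, Ppp2ca 0.036 and Ppp6c 0.27. With the replicate block and the GC trend removed, the values of the members that turned were those without the block.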

Other observations

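In 16 pairs of related members, put together after their values had been seen and given without a test, the partner richer in GC was the higher one in 8, and in 5 once the GC trend was removed. Log2 fold changes, cKO over Ctrl, had opposite signs in 8 of the 16 pairs, and in 7 with the GC trend removed. Of the 8 pairs with opposite signs under the authors' scaling the partner richer in GC was the higher one in 6, and in the neurabins, 1 of these, Ppp1r9b has a GC content of 62.3% and Ppp1r9a of 45.6%. In 3 pairs the signs were opposite under the authors' scaling and stayed so with the GC trend removed in the same order. These were Dusp6 (0.48, 0.44 with the trend removed) and Dusp7 (-0.85, -1.34), Ppp1r3c (0.60, 0.86) and Ppp1r3e (-0.42, -0.98), and Ptprm (0.47, 0.31) and Ptprt (-1.10, -1.09). For Dusp6 and Dusp7 and for Ppp1r3c and Ppp1r3e the partner poorer in GC was the higher one.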
